A study of Mus musculus with 2 samples.

Results

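Transcripts of 10 genes of the transforming growth factor beta (TGF-beta) system, of 32285 in the deposited tables, were followed through the cell classes of mouse plantaris muscle: the ligands Tgfb1, Tgfb2 and Tgfb3, the receptors Tgfbr1, Tgfbr2 and Tgfbr3, and the latent TGF-beta binding proteins Ltbp1, Ltbp2, Ltbp3 and Ltbp4. They were chosen by name as the ligands, receptors and latent binders of the system, whatever their values, and each symbol matched 1 identifier in both tables. All mice were male C57BL/6 (C57BL/6J in the design text), 12 weeks old. In each of 5 mice 1 leg had the tenotomy, which the design text places on the plantaris, and the plantaris of the other leg was the sham control. Muscles were taken 4 days later, and the 5 muscles of a group were pooled, digested with type II collagenase and sorted for living mononuclear cells, positive for Calcein AM and negative for propidium iodide. Each pool gave 1 library of 10x 3′ v3.1 chemistry, which counts unique molecular identifiers (UMIs, 1 per captured transcript) near the 3′ end of transcripts. The labels do not name the tendon that was cut, and the series title calls the muscle mechanically loaded, so whether the plantaris was unloaded or overloaded cannot be told from them.

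TGF-beta ligands are secreted in a latent form, folded into a propeptide that keeps them from the receptors. Latent TGF-beta binding proteins tie this latent complex to fibrillin and fibronectin in the extracellular matrix, from which integrins, proteases and thrombospondin can free or activate the ligand. The active ligand binds the type II receptor Tgfbr2, which phosphorylates the type I receptor Tgfbr1, and Tgfbr1 passes the signal to SMAD proteins. Tgfbr3 (betaglycan) is a co-receptor that presents ligand, Tgfb2 above all, and can also be shed as a trap. In skeletal muscle the pathway is known for driving matrix production by fibroblasts and for restraining the differentiation of myoblasts.

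With 1 library in each group there was no test: treatment and library cannot be told apart, and the spread between mice is unknown. The files held 8463 sham and 11950 tenotomy barcodes, of which 33 occurred in both, and 7533 and 10928 cells passed the filters, at a median depth of 4841 and 5859.5 UMIs. Clusters were given the name of a class, with the ending "-like", from marker genes, and clustering did not use the 10 genes or the pathway lists below. The names were rebuilt here and are not those of the authors. Classes with at least 50 cells in each library were compared: mesenchymal progenitor-like (1831 sham and 1704 tenotomy cells), tenocyte-like (382 and 205), muscle stem cell-like (503 and 585), myofibre-like (54 and 73), blood endothelial cell-like (3219 and 1443), pericyte or smooth muscle cell-like (312 and 196), monocyte or macrophage-like (107 and 4519), neutrophil-like (83 and 625) and B cell-like (53 and 267). Every one of these classes carried all markers of its own list above 0 in both libraries. Clusters without a name held 11.2% of cells in sham and 3.47% in tenotomy.

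Within a class, UMIs of all cells were summed and expressed per 1000000 UMIs of that class (CPM). A gene counted as measured in a class with at least 25 UMIs over both libraries and at least 10% of the CPM of all cells in the library where the class level was higher, a limit against free RNA that droplets pick up from other cells. A difference counted as higher or lower from a 2-fold difference of CPM. Intervals in parentheses after a fold are exact 95% intervals, and all intervals cover counting error only. CPM from a 3′ assay was compared between classes and libraries for 1 gene at a time, never between genes.

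Of 90 pairs of a gene and a class, 61 were measured. Tenotomy was at least 2-fold higher in 9 of them, at least 2-fold lower in 15 and within 2-fold in 37. Because the limit looked at the higher library alone, 1 of the higher and 2 of the lower pairs met it in 1 library only: Ltbp3 in macrophage-like cells at 5.84% of the all-cell level in sham and 21.3% in tenotomy, Tgfb2 in endothelial cells at 15.3% and 6.15%, and Tgfb2 in neutrophil-like cells at 51.9% and 1.19%. These 3 pairs could pass the limit only by differing, so they are no support for the counts. Over all genes and the same classes, 12.9% of measured pairs were higher and 10.6% lower. Ltbp4 was lower in 5 of the 7 classes in which it was measured and Tgfbr3 in 3 of 6. In neutrophil-like and B cell-like cells Ltbp4 stood in sham at 17.6% and 12.2% of the all-cell level. In tenotomy it stood at 37.7% and 15.7% of an all-cell level that was 6.99-fold lower. The part of other cells' RNA in these pairs was not tested. In cluster 24, the only muscle stem cell-like cluster with at least 20 cells in each library, Ltbp4 was above sham (1.24, 1.07 to 1.44). In the mesenchymal clusters 5, 6 and 7 Ltbp4 was below sham. Ltbp2 was higher in both classes in which it was measured, in the mesenchymal class from only 18 sham UMIs. Tgfb1 was within 2-fold in 7 of 8 classes, and Tgfb3 in 5 of 6. For Tgfb3, 1 of these 5 was the macrophage-like class, with 0 UMIs in sham and 77 in tenotomy. Its call came from taking sham at 3 UMIs, and it met the limit in tenotomy only, so it is no support for this count. The bars of CPM by class and library show these levels side by side.

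**Figure D1:**
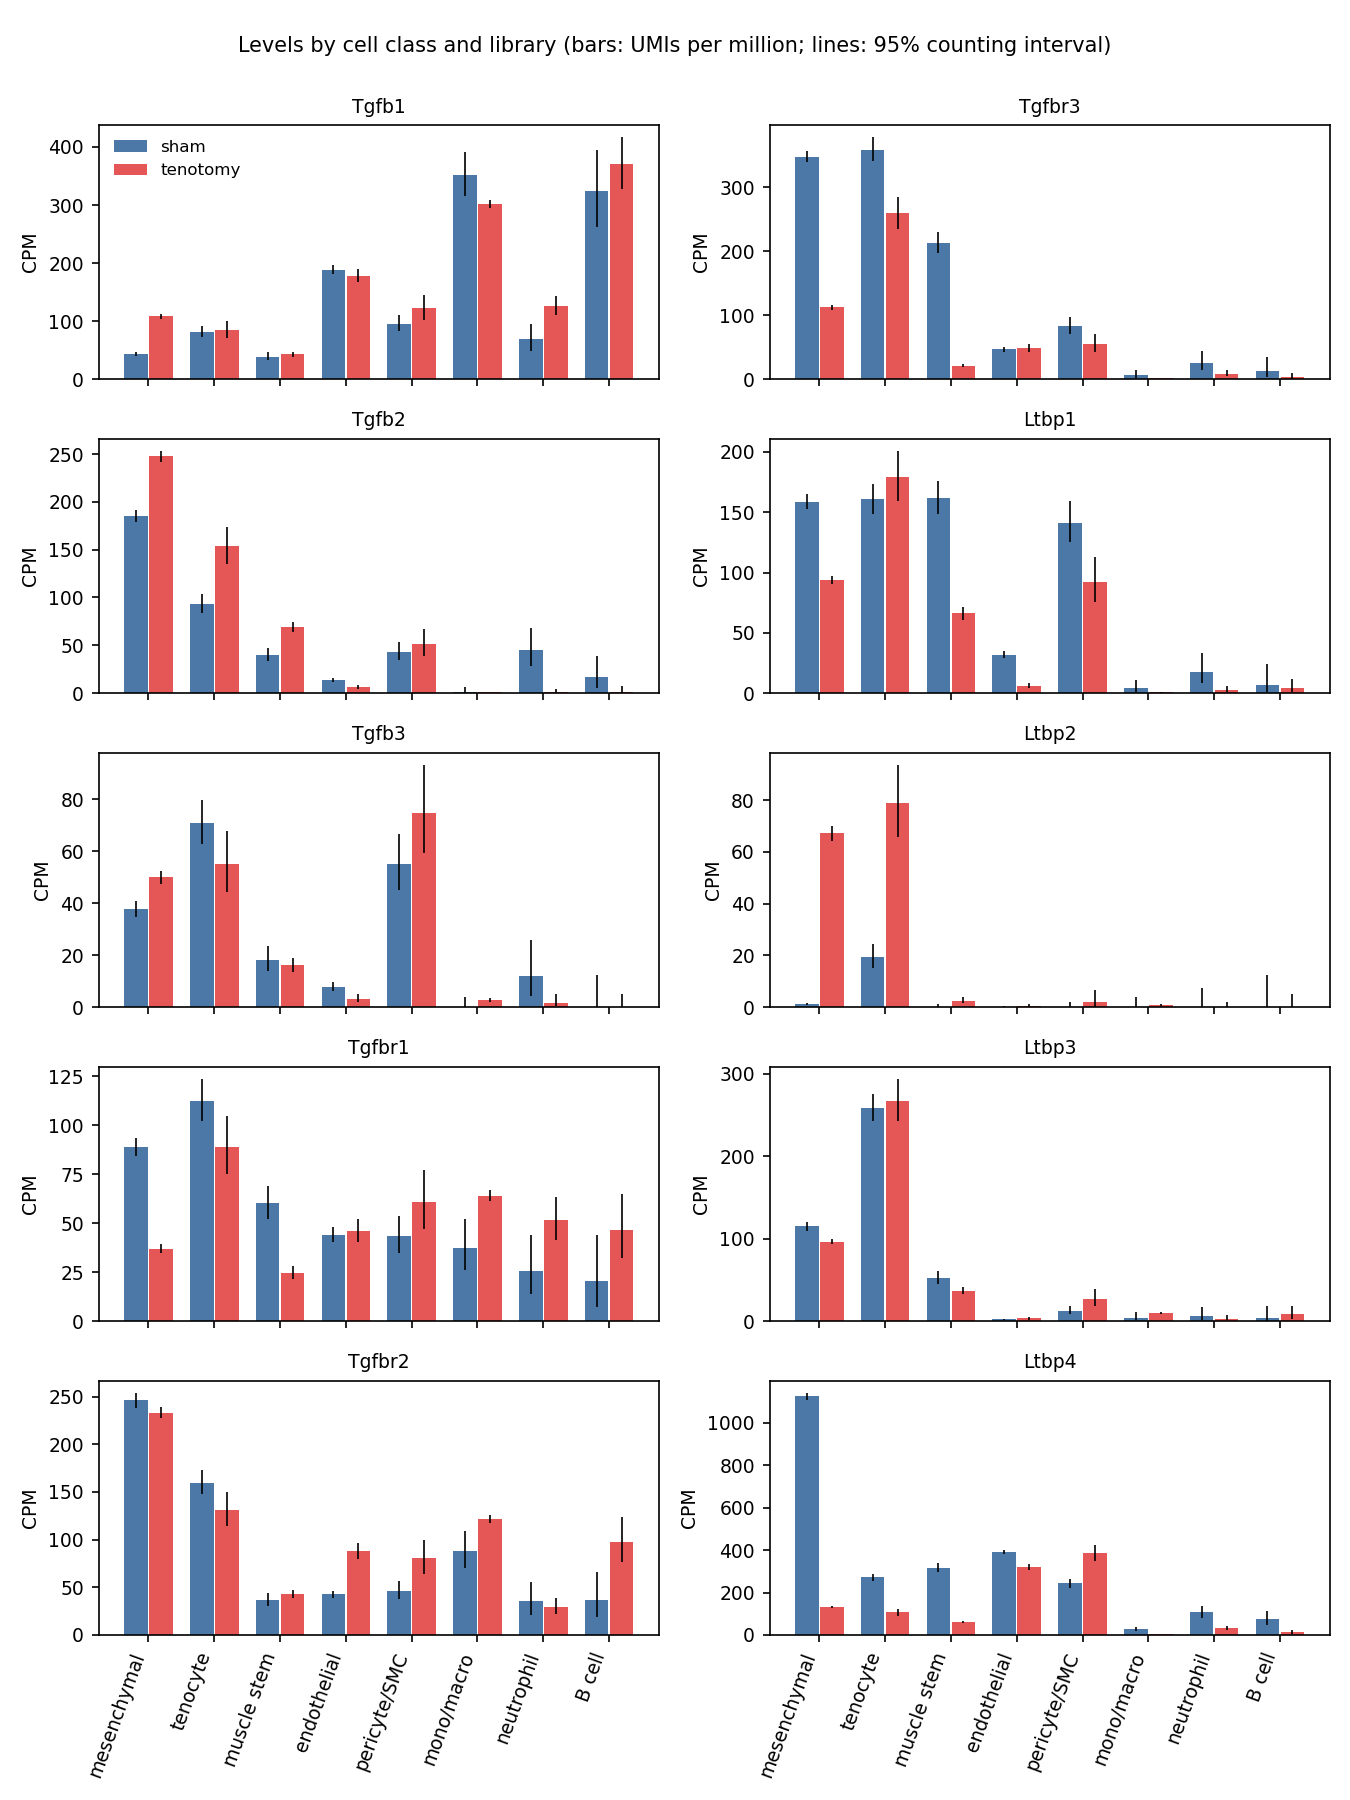
CPM of each of the 10 genes (vertical axes, linear and starting at 0) in 8 cell classes (horizontal axis) of the sham (blue) and tenotomy (red) libraries; lines are 95% counting intervals of the 1 library in each group. In mesenchymal progenitor-like cells Ltbp4 stood at 1124 in sham and 131 in tenotomy, and Ltbp2 at 1.12 and 67.2.

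Mesenchymal progenitor-like cells, the interstitial fibroblasts and fibro-adipogenic progenitors that make much of the muscle's matrix, held the largest share of the UMIs of most of the 10 genes. They also had the largest measured differences of the latent binders Ltbp2 and Ltbp4. All 10 genes were measured there: 2 were higher in tenotomy, 3 were lower and 5 lay within 2-fold. Of 13385 genes measured in this class, 14.4% were higher and 19.1% lower.

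The 2 latent binders that differed most in this class are shown by the promoter sequence upstream of their starts, as background to a pair of genes that went in opposite directions. Ltbp4, which binds latent Tgfb1 and also takes part in elastic fibre assembly, lies at chr7:27305136-27337692 on the minus strand of GRCm38 (mm10). Ltbp2, a fibrillin-binding matrix protein that does not bind latent TGF-beta covalently, lies at chr12:84783212-84876532 on the minus strand. The first 160 bases of each RefSeq promoter window (GRCm38.p6, 5′ to 3′ on the gene's strand) are printed, with the SMAD box CAGAC, in either orientation, in capitals.
Ltbp2 promoter, chr12:84876582-84876741, minus strand: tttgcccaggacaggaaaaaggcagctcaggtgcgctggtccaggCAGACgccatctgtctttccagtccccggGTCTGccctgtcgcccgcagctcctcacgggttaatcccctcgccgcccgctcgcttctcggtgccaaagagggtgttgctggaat
Ltbp4 upstream promoter, chr7:27337703-27337862, minus strand: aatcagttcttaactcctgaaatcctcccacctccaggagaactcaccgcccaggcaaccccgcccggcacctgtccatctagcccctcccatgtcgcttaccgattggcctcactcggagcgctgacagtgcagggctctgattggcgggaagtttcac
Over the whole window of 300 bases, the Ltbp2 promoter held 3 copies of CAGAC on both strands together, and none of the 3 annotated Ltbp4 windows held 1. Of 32851 promoter windows in the RefSeq table, 49.6% held at least 1 copy and 3.90% held 3 or more. The GC box GGGCGG, present in 35.7% of all windows, occurred 2 times in the Ltbp2 window and 3 times in the upstream Ltbp4 window. In the other annotated Ltbp4 windows, which overlap, it occurred 7 and 9 times. The table matched 8 of the 10 genes with 12 starts, and Tgfb3 and Tgfbr3 were not among them. These matches describe letters in a window and say nothing about binding.

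Ltbp4 in mesenchymal progenitor-like cells was 1124 CPM in sham (18074 UMIs) and 131 CPM in tenotomy (4042 UMIs), 8.59-fold lower (8.30 to 8.89). Per cell this was 9.87 UMIs in sham and 2.37 in tenotomy, so the difference was also present without scaling to the class total. To compare shares of cells at equal depth, each cell was thinned to 2000 UMIs, which left out 26 sham cells of this class. At that depth 83.0% of sham (81.2% to 84.8%) and 27.9% of tenotomy cells (25.7% to 30.1%) carried an Ltbp4 UMI, against 97.6% and 66.6% before thinning. Monocyte or macrophage-like cells, with a median of 6016 UMIs in tenotomy against 15898 in the mesenchymal class, carried it in 0.482% of thinned tenotomy cells, a level taken as background. The share in mesenchymal cells was above that background in both libraries. Summed after thinning, the Ltbp4 fold was 0.207, that is, a smaller difference than in the unthinned sums, and it was 0.207 without cells that carried cycle transcripts.

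Ltbp2 was 1.12 CPM in sham, from 18 UMIs, and 67.2 CPM in tenotomy, from 2077 UMIs. The fold was 60.05 (37.9 to 102), and 24.5 when cells were thinned before summing. An Ltbp2 UMI was found in 0.277% of thinned sham cells (0.0900% to 0.645%) and in 7.35% of thinned tenotomy cells (6.15% to 8.71%), against 0.492% and 29.5% unthinned. The tenotomy share of thinned monocyte or macrophage-like cells was 0.169%. Ltbp2 was thus above that share in tenotomy progenitors. The share is from the tenotomy library and gives no background for sham. In sham, blood endothelial cell-like cells held 0 Ltbp2 UMIs (3219 cells) and progenitors held 18 UMIs (1831 cells). The sham level of progenitors was thus low, but above that of endothelial cells.

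Ltbp1 and Ltbp3, which hold latent ligand in the matrix by a disulfide link, differed less. Ltbp1 (chr17:75005568-75392512, plus strand) was 159 CPM in sham and 93.9 in tenotomy, 1.69-fold lower (1.60 to 1.78). Ltbp3 (chr19:5740904-5758532, plus strand) was 115 and 96.5 CPM, a fold of 0.840 (0.793 to 0.891). Per cell, without scaling, both lay above sham in the deeper tenotomy cells. Ltbp1 was 1.39 UMIs per cell in sham and 1.70 in tenotomy, and Ltbp3 was 1.01 and 1.75. A UMI of any of the 4 latent binders was present in 89.4% of thinned sham progenitors and 54.9% of thinned tenotomy progenitors.

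Among the ligands, only Tgfb1 passed 2-fold in the mesenchymal class. Tgfb1 (chr7:25687002-25705077, plus strand), the isoform most used in injury responses and by immune cells, was 42.7 CPM in sham and 108 in tenotomy, 2.53-fold higher (2.33 to 2.75). Its share of thinned cells was 6.76% in sham (5.64% to 8.02%) and 17.8% in tenotomy (16.0% to 19.7%), against 26.2% and 60.2% unthinned. Tgfb1 was measured in every compared class except myofibre-like cells. Those were few (54 and 73), with 1 and 3 Tgfb1 UMIs, so no background value was taken for this share. Tgfb2 (chr1:186622792-186705989, minus strand), the ligand that depends most on betaglycan, was 185 and 247 CPM, 1.34-fold higher (1.28 to 1.40). Tgfb3 (chr12:86056745-86079041, minus strand), an isoform studied in scar-poor repair and palate formation, was 37.6 and 49.9 CPM, 1.33-fold higher (1.21 to 1.46). At least 1 ligand UMI was present in 36.3% of thinned sham and 50.4% of thinned tenotomy progenitors.

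The 3 receptors of the mesenchymal class were all below sham in class CPM, and 2 of them passed 2-fold. Tgfbr3 (chr5:107106570-107289629, minus strand) was 348 CPM in sham and 112 in tenotomy, 3.101-fold lower (2.97 to 3.24), with 47.6% and 26.8% of thinned cells positive against 88.8% and 77.3% unthinned. Macrophage-like cells of the tenotomy library were positive in 0.313%. Tgfbr1 (chr4:47353222-47414931, plus strand), the kinase that phosphorylates SMADs, was 88.8 and 37.0 CPM, 2.40-fold lower (2.22 to 2.60). Thinning before summing gave Tgfbr1 a fold of 0.516, which is within 2-fold, and its UMIs per cell were 0.780 in sham and 0.671 in tenotomy. Tgfbr2 (chr9:116084293-116175360, minus strand), the ligand-binding kinase, was 246 and 233 CPM, a fold of 0.947 (0.911 to 0.985). Its share of thinned cells lay on the other side, at 34.8% in sham and 38.9% in tenotomy. So did its UMIs per cell, at 2.16 in sham and 4.23 in tenotomy, where cells were deeper. The Tgfbr2 fold was above 1 in 3 of 12 alternatives, up to 1.18, so its direction was not fixed. Both signalling receptors were found together in 5.76% of thinned sham and 3.86% of thinned tenotomy progenitors. If the 2 receptors fell on cells independently, the products of their shares would give 5.74% and 3.37%.

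Depth, cycling and other cells' RNA moved with these differences. The median cell of the class held 8555 UMIs in sham and 15898 in tenotomy, and cells with at least 2 UMIs of cycle transcripts made up 1.09% and 40.6%. The summed CPM of 9 monocyte and macrophage markers in this class was 46.8 in sham and 390 in tenotomy, 9 of 9 higher, or 0.200% and 2.11% of their sum in their own class. None of them was at 0 in tenotomy and Fcgr1 was at 0 in sham. The part of these in the results was not tested beyond the thinned values and those without cycling cells. Macrophage-like cells themselves carried Ltbp2 and Ltbp4 at 0.759 and 3.21 CPM in tenotomy, below the levels in mesenchymal cells.

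The class was made of different clusters in the 2 libraries. A cluster led by Smoc2 and Ccl11 (cluster 6) held 45.1% of its sham cells, and a cluster led by Postn and Tnc (cluster 33) held 74.5% of its tenotomy cells with 4 cells in sham. In cluster 33 the tenotomy levels were 93.9 CPM for Ltbp4, 73.7 for Ltbp2, 96.1 for Tgfbr3 and 115 for Tgfb1. In clusters present in both libraries the Ltbp4 difference was smaller than in the class. Ltbp4 was 852 and 318 CPM in the Pi16-led cluster 5 (594 and 236 cells), 2.68-fold lower, and 1235 and 624 CPM in the Myoc-led cluster 7 (407 and 170 cells), a fold of 0.505 (0.466 to 0.546). In cluster 6, with 29 tenotomy cells, Ltbp4 was 1302 and 1008 CPM, a fold of 0.774 (0.653 to 0.911). Ltbp4 was thus lower in tenotomy in each of these 3 clusters, and past 2-fold in cluster 5 alone.

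Other members differed by cluster in other ways. Tgfb1 was within 2-fold in clusters 5, 6 and 7, with folds of 0.865, 1.52 and 1.12, against 115 CPM in the tenotomy cells of cluster 33. Ltbp2 was 3.46 and 14.2 CPM in cluster 7, 4.10-fold higher (1.81 to 9.69), and at most 1.21 CPM in clusters 5 and 6. Tgfbr3 had folds of 0.843, 0.765 and 0.759 in clusters 5, 6 and 7. Tgfbr2 was 349 and 492 CPM in cluster 5, a fold of 1.41 (1.30 to 1.53), while the class as a whole had a fold of 0.947. The plot of levels by cluster shows the sham and tenotomy points of each.

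**Figure D2:**
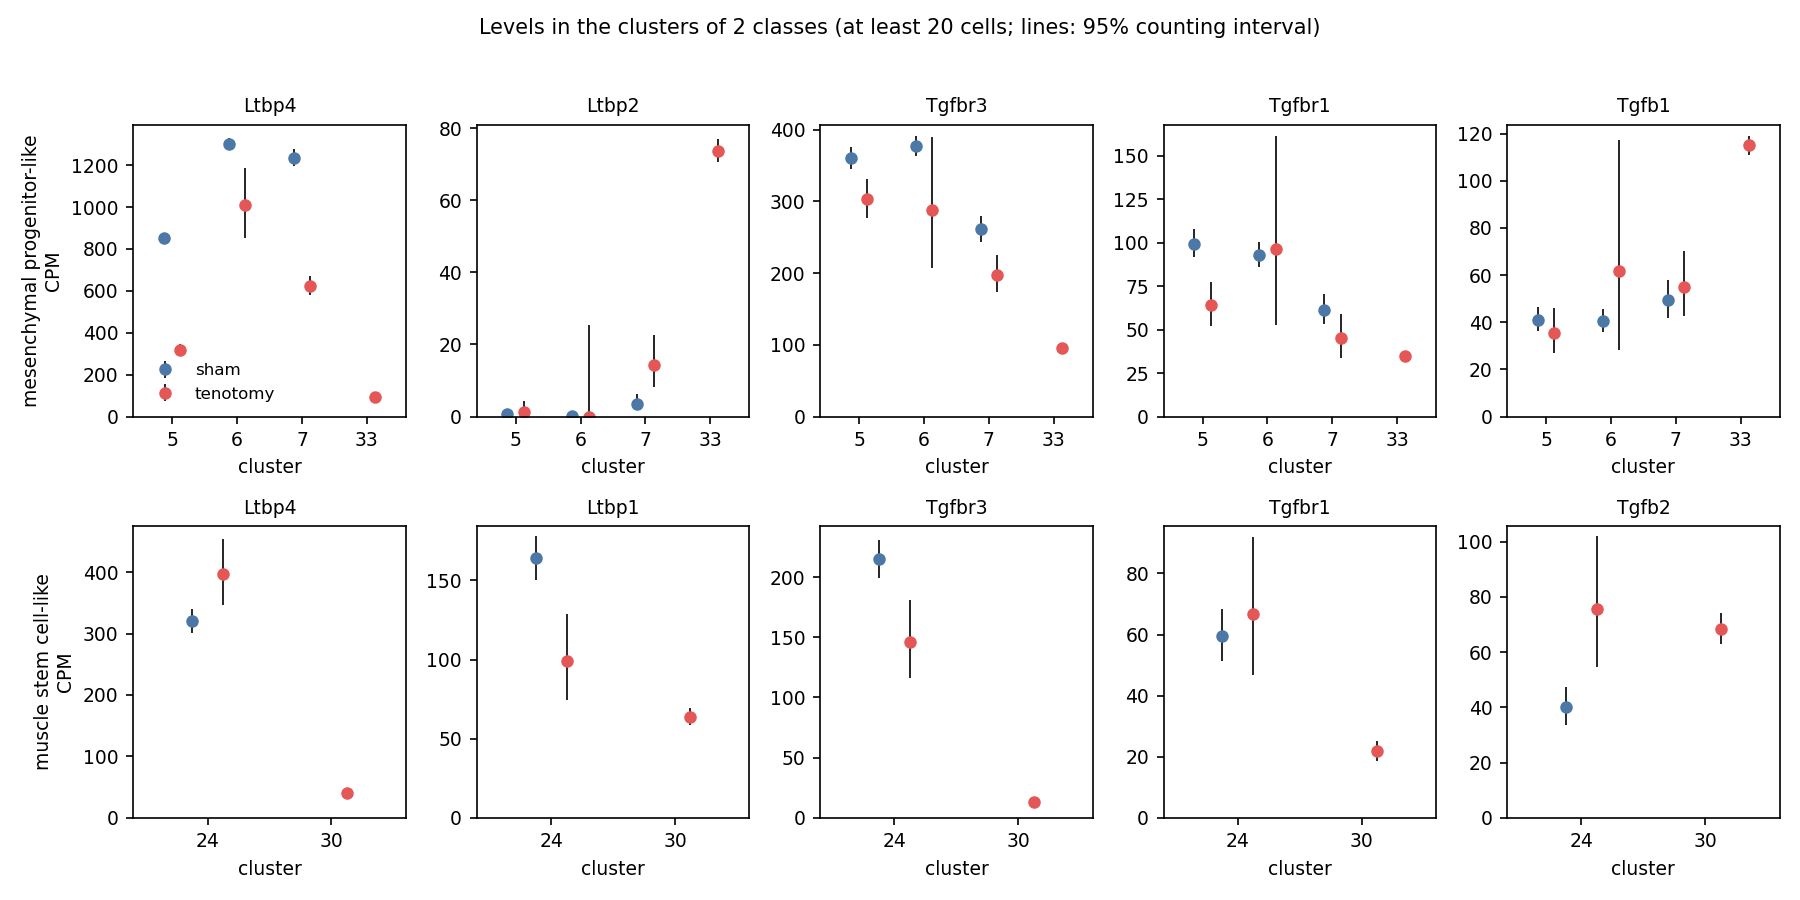
CPM (vertical axes, starting at 0) of 5 genes in clusters 5, 6, 7 and 33 of the mesenchymal progenitor-like class (top row) and in clusters 24 and 30 of the muscle stem cell-like class (bottom row), for sham (blue) and tenotomy (red) where a cluster held at least 20 cells of that library; lines are 95% counting intervals. Clusters 33 and 30 have only a tenotomy point, and Ltbp4 there was 93.9 and 39.9.

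Tenocyte-like cells, tendon fibroblasts that came from a single cluster led by Fmod and Comp, shared 2 of these differences. All 10 genes were measured there, with 1 higher, 1 lower and 8 within 2-fold, where 6.11% of 9616 genes were higher and 9.53% lower. Ltbp2 was 19.3 CPM in sham (75 UMIs) and 78.8 in tenotomy (129 UMIs), 4.08-fold higher (3.04 to 5.49). Ltbp4 was 272 and 106 CPM, 2.56-fold lower (2.18 to 3.03). The 2 genes thus lay on the same sides as in the mesenchymal class. Tgfb1 was 81.7 and 84.9 CPM, a fold of 1.04 (0.845 to 1.27), and Tgfb2 was 93.3 and 153 CPM, 1.64-fold higher (1.39 to 1.94). Tgfb3 was 70.6 and 55.0 CPM, a fold of 0.778. Tenocyte-like cells had the highest Tgfbr1 level of the compared classes in both libraries, 113 and 89.2 CPM, a fold of 0.792 (0.652 to 0.957). Tgfbr2 was 160 and 131 CPM, and Tgfbr3 was 359 and 259 CPM, a fold of 0.722 (0.646 to 0.806). They also had the highest Ltbp3 level, 259 and 268 CPM, and an Ltbp1 level of 161 and 179 CPM, neither past 2-fold. The summed monocyte and macrophage markers in this class were 210 CPM in sham and 924 in tenotomy, 9 of 9 higher, and their part in the results was not tested.

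Muscle stem cell-like cells, the Pax7 and Myf5 lineage that rebuilds fibres, had lower levels of Tgfbr1, Tgfbr3, Ltbp1 and Ltbp4 in tenotomy. Of 9 measured genes, 0 were higher, 4 were lower and 5 were within 2-fold, where 34.2% of 10988 genes were higher and 11.6% lower. Tgfbr3 was 213 CPM in sham (715 UMIs) and 21.2 in tenotomy (190 UMIs), 10.0-fold lower (8.53 to 11.8). Its share of thinned cells was 36.4% in sham and 7.02% in tenotomy, against 69.2% and 20.9% unthinned. Ltbp4 was 318 and 62.1 CPM, 5.11-fold lower (4.61 to 5.68), with 45.1% and 20.1% of thinned cells positive. Both differences shrank by over 1.5 times and stayed past 2-fold when cells were thinned before summing, with folds of 0.193 for Tgfbr3 and 0.449 for Ltbp4.

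Ltbp1 was 162 CPM in sham and 66.1 in tenotomy, 2.45-fold lower (2.18 to 2.76). Its UMIs per cell were 1.08 and 1.01, and 27.2% of sham and 12.5% of tenotomy cells carried it after thinning. The fold ranged from 0.291 to 0.443 over the 12 alternatives. Tgfbr1 was 60.15 and 24.6 CPM, 2.45-fold lower (2.01 to 2.98), and within 2-fold after thinning (0.553), as a mean of CPM over cells (0.683) and without cycling cells (0.623). The ligands were within 2-fold: Tgfb1 was 39.0 and 42.6 CPM, Tgfb2 39.9 and 68.8, and Tgfb3 18.2 and 16.1. Tgfb2 had a fold of 1.73 (1.43 to 2.10), which passed 2-fold in 4 of 12 alternatives and ranged from 1.18 to 2.13. Tgfbr2 was 36.6 and 43.1 CPM, and Ltbp3 was 52.7 and 36.8 CPM. Ltbp2 was at 0 UMIs in 503 sham cells and at 22 UMIs in 585 tenotomy cells, too few to be measured.

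The median depth of these cells was 5976 UMIs in sham and 12464 in tenotomy, and 0.994% and 50.3% carried cycle transcripts. A cluster led by Gal and Asb5 (cluster 24) held 99.4% of the sham cells, and a cluster led by Ttn and Myog (cluster 30), genes of differentiating myoblasts, held 81.5% of the tenotomy cells. Within cluster 24 (500 and 108 cells) Ltbp4 was 320 CPM in sham and 398 in tenotomy, a fold of 1.24 (1.07 to 1.44), on the other side of 1 from the class. Tgfbr1 was 59.4 and 66.6 CPM there, a fold of 1.12 (0.766 to 1.60). Tgfbr3 was 215 and 146 CPM, a fold of 0.679 (0.532 to 0.855), and Ltbp1 was 164 and 99.0 CPM, a fold of 0.604 (0.449 to 0.798). In cluster 30 the tenotomy levels were 39.9 CPM for Ltbp4, 12.99 for Tgfbr3, 64.0 for Ltbp1 and 21.8 for Tgfbr1. None of the 4 genes was past 2-fold within cluster 24. The summed myofibre markers of the class were 50.3 CPM in sham and 1830 in tenotomy, with 6 of 8 higher, the summed monocyte and macrophage markers were 45.6 and 397 CPM, with 9 of 9 higher, and the summed neutrophil markers 24.7 and 951 CPM, with 8 of 8 higher. Their part in the results was not tested.

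**Figure D3:**
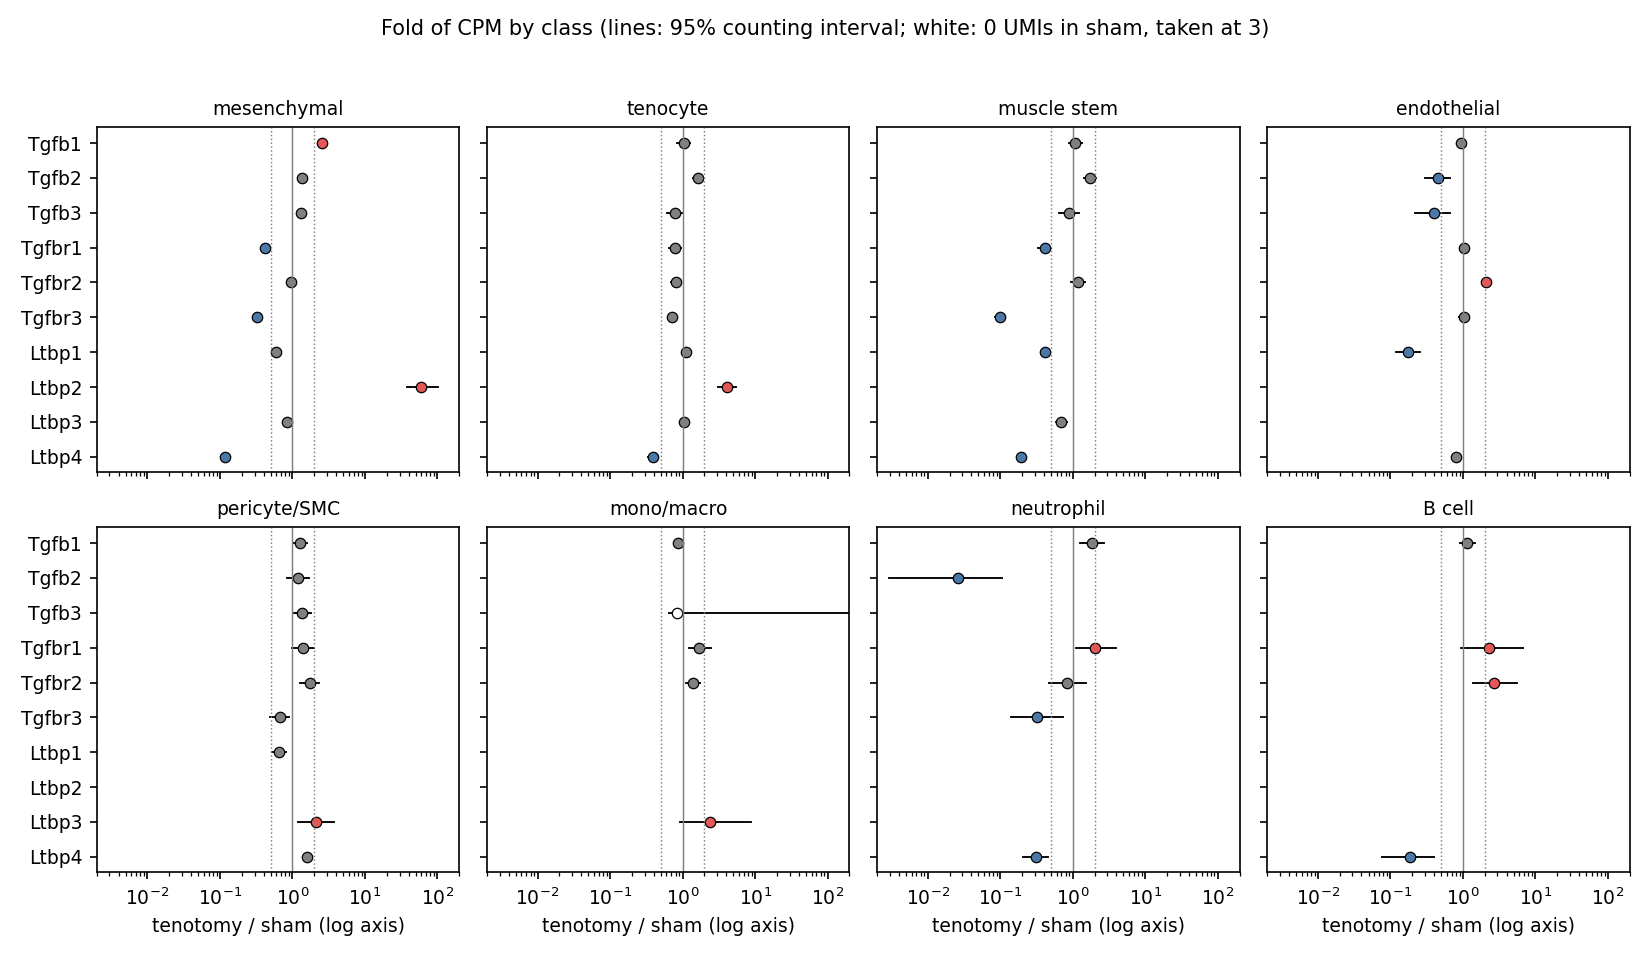
Fold of CPM, tenotomy over sham (horizontal log axes, with lines at 0.5, 1 and 2), for the measured genes of 8 cell classes; points are red where at least 2-fold higher, blue where at least 2-fold lower and grey between, and lines are 95% counting intervals. The white point is Tgfb3 in monocyte or macrophage-like cells, with 0 UMIs in sham, taken at 3; Ltbp4 is blue in 5 of the 7 panels that show it.

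Blood endothelial cell-like cells differed in Tgfbr2 and in genes of low level. Of 8 measured genes 1 was higher, 3 were lower and 4 were within 2-fold, where 7.57% of 11169 genes were higher and 8.37% lower. Tgfbr2 was 42.5 CPM in sham (501 UMIs) and 87.8 in tenotomy (480 UMIs), 2.06-fold higher (1.82 to 2.34). Its share of thinned cells was 7.47% and 15.2%, against 13.1% and 22.8% unthinned. The fold was 1.88 under the per-cell marker gate, which is within 2-fold. Ltbp1 was 31.9 CPM in sham (376 UMIs) and 5.67 in tenotomy (31 UMIs), 5.63-fold lower (3.90 to 8.41), with 5.92% and 1.19% of thinned cells positive.

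The other genes of endothelial cells differed less or rested on few UMIs. Tgfb2 was 13.3 and 6.03 CPM, 2.21-fold lower (1.51 to 3.32), and Tgfb3 was 7.89 and 3.11 CPM, 2.54-fold lower (1.504 to 4.54). Both were within 2-fold under the marker gate, with folds of 0.578 and 0.786. Tgfb1 was 189 and 178 CPM with 29.8% and 30.5% of thinned cells positive, and its interval for the fold ran from 0.875 to 1.02. Tgfbr1 was 43.9 and 46.1 CPM, Tgfbr3 46.5 and 48.5, and Ltbp4 390 and 319, a fold of 0.817 (0.772 to 0.863). Ltbp4 was thus within 2-fold in endothelial cells and lower in the 3 classes described before.

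Endothelial clusters also differed in their share of the class, with the Timp4-led cluster 0 holding 63.5% of sham cells and the Ctla2a-led cluster 1 holding 69.0% of tenotomy cells. Tgfbr2 was higher in tenotomy in each of 4 clusters with at least 20 cells in both libraries: 36.3 and 51.7 CPM in cluster 0, 55.4 and 86.9 in cluster 1, 61.8 and 155 in cluster 3, and 27.1 and 88.3 in cluster 19. It passed 2-fold in clusters 3 (2.51, 1.73 to 3.58) and 19 (3.25, 1.54 to 7.67). In clusters 0 (1.42, 0.803 to 2.35) and 1 (1.57, 0.818 to 3.46), which held most sham and most tenotomy cells, the intervals included 1. Ltbp1 in cluster 0 was 28.6 and 3.23 CPM, the latter from 1 UMI, a fold of 0.113 (0.00284 to 0.635). In cluster 3 Ltbp1 was 35.8 and 11.6 CPM, the latter from 3 UMIs, a fold of 0.325 (0.0657 to 0.981). Tgfb2 in cluster 3 was 44.5 and 38.8 CPM, a fold of 0.872 (0.407 to 1.67). Ltbp4, below sham in the class, was above it in cluster 0 (326 and 433 CPM, a fold of 1.33, 1.11 to 1.58). It was also above sham in cluster 3 (543 and 768 CPM, 1.41, 1.21 to 1.64). In cluster 1 the Ltbp4 fold was 0.652 (0.512 to 0.842) and in cluster 19 it was 0.858 (0.672 to 1.10). The summed monocyte and macrophage markers of the class were 66.3 CPM in sham and 456 in tenotomy, with 9 of 9 higher and Ccr2 at 0 in sham, and their part in the Tgfbr2 result was not tested.

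Pericyte or smooth muscle cell-like cells, the contractile cells of the vessel wall, had 9 measured genes with 1 higher, 0 lower and 8 within 2-fold, where 5.24% of 8783 genes were higher and 8.41% lower. The higher gene was Ltbp3 at 12.75 CPM in sham (25 UMIs) and 27.1 in tenotomy (29 UMIs), 2.13-fold (1.20 to 3.79), and 1.85 with cells of at most 5% mitochondrial UMIs. Ltbp4 was 243 and 387 CPM, a fold of 1.59 (1.39 to 1.82), so this was the only compared class with a measured Ltbp4 level above sham. In tenotomy it was also the class with the highest Ltbp4 level, whereas mesenchymal progenitor-like cells had the highest in sham. Tgfb1 was 95.9 and 122 CPM, Tgfb2 42.8 and 51.4, and Tgfb3 55.1 and 74.8. Tgfbr1 was 43.4 and 60.8 CPM, Tgfbr2 46.4 and 80.4 with a fold of 1.73 (1.27 to 2.35), and Tgfbr3 82.6 and 55.2. Ltbp1 was 141 and 92.5 CPM, a fold of 0.655 (0.515 to 0.827). All 3 ligands and both signalling receptors were above sham here without passing 2-fold, and the intervals of Tgfb2 and Tgfbr1 included 1. Tgfb3 was below sham under the marker gate, at 0.779, and past 2-fold with cells of at most 5% mitochondrial UMIs, at 2.35. Tgfb1 passed 2-fold at Leiden resolution 2, at 2.42. Summed neutrophil markers of the class were 23.0 CPM in sham and 1934 in tenotomy, with 8 of 8 higher. Summed mesenchymal markers were 773 and 1109 CPM, with 6 of 8 higher, or 9.25% and 17.4% of their sum in their own class, where Ltbp3 stood at 115 and 96.5 CPM. The part of either was not tested.

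Monocyte or macrophage-like cells were few in sham (107) and many in tenotomy (4519). Of 5 measured genes 1 was higher, 0 were lower and 4 were within 2-fold, where 9.21% of 11090 genes were higher and 10.5% lower. Tgfb1 was 352 CPM in sham and 302 in tenotomy, a fold of 0.858 (0.768 to 0.961), with 47.6% and 45.0% of thinned cells positive. Together with B cell-like cells they had the highest Tgfb1 level of the compared classes in both libraries. Tgfbr1 was 37.5 and 64.0 CPM, a fold of 1.70 (1.22 to 2.45). Tgfbr2 was 88.0 and 122 CPM, a fold of 1.39 (1.11 to 1.75). Ltbp3 was 4.29 CPM in sham, from 4 UMIs, and 10.1 in tenotomy, 2.36-fold higher with an interval of 0.914 to 8.73. Tgfb3 had 0 UMIs in sham and 77 in tenotomy, 2.66 CPM, and its fold, taken against a floor of 3 UMIs where sham was at 0, changed sides between alternatives.

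The macrophage values depended on cells left without a name. Cluster 13 (302 sham and 23 tenotomy cells), led by Folr2 and Cd163, genes of resident macrophages, stayed out. It scored 0.710 for the macrophage class and 0.177 for the next class. Its leading genes held 0 markers of its own class and 1 of another, Lyve1 of the lymphatic endothelial markers. That 1 gene kept it without a name. With cluster 13 in the class, Tgfb1 was 320 and 302 CPM, a fold of 0.944 (0.878 to 1.02). Tgfbr2 was then 203 and 123 CPM, a fold of 0.607 (0.553 to 0.667), on the other side of 1, and Ltbp3 had a fold of 0.831. Tgfbr1 kept its side with 40.7 and 63.9 CPM, a fold of 1.57 (1.29 to 1.93). Tgfbr2 thus had no fixed direction in these cells, while in the class as a whole Tgfb1 was within 2-fold and Tgfbr1 above sham with and without cluster 13. Within the class, Tgfbr1 was 93.0 CPM in the Spp1-led cluster 17, which held 0 sham cells, against 52.4 in the Ccl8-led cluster 14 and 46.0 in the Clec4e-led cluster 22 of the tenotomy library. Cluster 14, with 51 sham cells, had a sham level of 54.8 CPM, a fold of 0.957 (0.618 to 1.56). Cluster 22, with 40 sham cells, had a sham level of 27.0 CPM, a fold of 1.71 (1.01 to 3.14).

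Neutrophil-like cells had 6 measured genes with 1 higher, 3 lower and 2 within 2-fold, where 11.2% of 6012 genes were higher and 4.51% lower. Tgfbr1 was 25.6 CPM in sham (13 UMIs) and 51.4 in tenotomy (88 UMIs), a fold of 2.01 (1.12 to 3.92), and it ranged from 1.004 to 3.25 over the alternatives. Tgfb2 was 45.3 CPM in sham from 23 UMIs in 4.82% of cells and 1.17 in tenotomy from 2 UMIs, 38.8-fold lower (9.58 to 339). Tgfbr3 was 25.6 and 8.18 CPM, 3.13-fold lower (1.36 to 7.18), and Ltbp4 was 106 and 32.7 CPM, 3.25-fold lower (2.20 to 4.81). Markers of other cells differed in both directions in this class. Mesenchymal markers summed to 419 and 113 CPM, endothelial markers to 614 and 384, and muscle stem cell markers to 130 and 15.8, with 8 of 8 markers lower in each list. Among the lists with a higher sum were tenocyte (33.5 and 70.1 CPM), myofibre (63.0 and 101), B cell (17.7 and 56.1) and erythroid markers (11.8 and 81.8). The part of other cells' RNA in the 3 lower genes was not tested. Tgfb1 was 68.9 and 126 CPM, a fold of 1.83 (1.28 to 2.70), and Tgfbr2 was 35.4 and 29.2 CPM. The Tgfb1 fold passed 2 in 4 of 12 alternatives, up to 2.41, and was 0.922, below sham, with each library clustered alone.

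B cell-like cells had 4 measured genes with 2 higher, 1 lower and 1 within 2-fold, where 11.1% of 5315 genes were higher and 4.48% lower. Tgfb1 was 323 CPM in sham and 370 in tenotomy, a fold of 1.14 (0.904 to 1.46). Tgfbr1 was 20.2 CPM from 6 UMIs and 46.3 from 34, 2.29-fold higher (0.9503 to 6.67), and Tgfbr2 was 37.1 CPM from 11 UMIs and 98.0 from 72, 2.64-fold higher (1.39 to 5.53). Tgfbr2 was within 2-fold after thinning, at 1.32. Ltbp4 was 74.1 CPM from 22 UMIs and 13.6 from 10, 5.44-fold lower (2.47 to 12.9). The summed monocyte and macrophage markers in this class were 179 and 2363 CPM, with 9 of 9 higher and Ccr2 and Fcgr1 at 0 in sham. Endothelial markers summed to 721 and 361 CPM, with 2 of 8 higher, and mesenchymal markers to 371 and 144, with 1 of 8 higher. Muscle stem cell markers went the other way, at 0 and 110 CPM. The part of these lists in the results was not tested. In myofibre-like cells, with at most 12 UMIs of any of the 10 genes in a library, 0 genes were measured, where 13.1% of 1488 genes were higher and 9.88% lower.

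The cells that held each gene's transcripts differed between the libraries more than many levels within classes did. Blood endothelial cell-like cells held 43.9% of the Tgfb1 UMIs of sham and 6.05% of those of tenotomy, and monocyte or macrophage-like cells held 6.47% and 54.2%. With cluster 13 in the macrophage class these last shares were 16.0% and 54.4%. Over all kept cells Tgfb1 was 115 CPM in sham and 181 in tenotomy, a fold of 1.58 (1.53 to 1.63). The sham levels of each class in the tenotomy mix of classes would give a fold of 1.58, and the tenotomy levels in the sham mix a fold of 1.21. With cluster 13 in the macrophage class these were 1.47 and 1.23.

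Other genes divided differently between mix and level. Ltbp4 over all cells was 606 and 86.7 CPM, 6.99-fold lower, with a fold of 0.791 from the mix and 0.302 from the levels. Tgfbr3 was 198 and 51.8 CPM, 3.81-fold lower, with 0.801 from the mix and 0.429 from the levels. Ltbp2 was 2.20 and 25.5 CPM, 11.6-fold higher (9.45 to 14.3), with 0.354 from the mix and 14.6 from the levels. The level of a class here includes any shift between its clusters, and within clusters 5, 6, 7 and 24 the differences of Ltbp4 and Tgfbr3 were smaller than in their classes, as given above. Tgfbr2 was 143 and 141 CPM over all cells, although mesenchymal progenitor-like cells held 62.9% and 57.4% of it and macrophage-like cells 1.30% and 28.1%, or 8.15% and 28.5% with cluster 13. In each library, fewer cells of a class and less RNA per cell cannot be told apart in such totals.

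**Figure D4:**
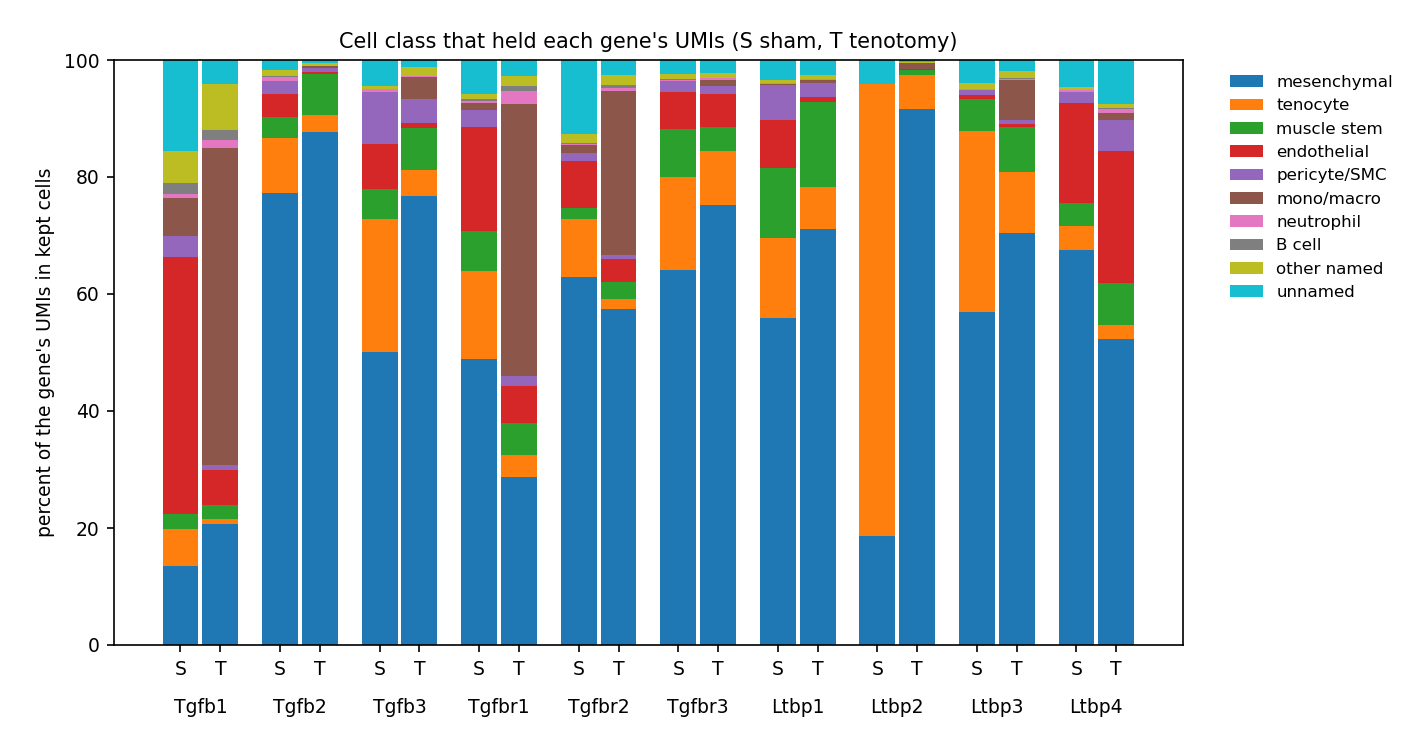
Percent of each gene's UMIs in kept cells (vertical axis, 0 to 100) by the class that held them (colours) in the sham (S) and tenotomy (T) libraries. For Tgfb1 the endothelial part was 43.9% in sham and the macrophage part 54.2% in tenotomy, and for Ltbp2 the tenocyte part was 77.3% in sham and the mesenchymal part 91.7% in tenotomy.

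Mesenchymal progenitor-like cells held most UMIs of Tgfb2 in both libraries (77.3% and 87.6%), of Tgfb3 (50.1% and 76.8%), Tgfbr3 (64.1% and 75.2%), Ltbp1 (55.9% and 71.2%), Ltbp3 (56.9% and 70.5%) and Ltbp4 (67.6% and 52.4%). Tenocyte-like cells held 77.3% of the 97 Ltbp2 UMIs of sham and 5.69% of the 2266 of tenotomy, and mesenchymal progenitor-like cells held 18.6% and 91.7%. Tgfbr1 was held by mesenchymal progenitor-like cells for 48.9% in sham and 28.7% in tenotomy, and by macrophage-like cells for 1.20% and 46.6%, or 3.53% and 46.7% with cluster 13. In tenotomy, macrophage-like cells thus held the largest shares of Tgfb1 and Tgfbr1, and mesenchymal cells those of the 4 latent binders.

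Order of levels was read from counting intervals alone, between the compared classes in which a gene was measured. In sham, Tgfb1 was highest in monocyte or macrophage-like and B cell-like cells, whose intervals overlapped, followed by endothelial cells. It was lowest in muscle stem cell-like and mesenchymal progenitor-like cells, whose intervals also overlapped. In tenotomy the mesenchymal class, pericytes and neutrophils overlapped, and muscle stem cell-like cells alone stayed lowest. Tgfb2 was highest in mesenchymal progenitor-like cells and next in tenocyte-like cells in both libraries. Tgfbr2 was also highest in mesenchymal cells and next in tenocyte-like cells in sham, but with cluster 13 the sham macrophage level of 203 CPM lay above that of tenocyte-like cells. In tenotomy the Tgfbr2 intervals of tenocyte-like, macrophage-like and B cell-like cells overlapped. Tgfbr3 was highest in tenocyte-like and mesenchymal cells with overlapping intervals in sham, and in tenocyte-like cells in tenotomy. Ltbp1 in sham did not differ beyond counting error between neighbours among muscle stem cell-like, tenocyte-like, mesenchymal and pericyte cells.

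Other genes of the system were taken as 4 lists by their role. Of 21 partners and activators of the latent complex, 20 were measured in mesenchymal progenitor-like cells, with 6 higher and 4 lower. On the log2 scale the median fold was 0.45, against -0.07 over all genes. Of all 13385 genes measured in this class, 14.4% were higher and 19.1% lower. Fbn2, a fibrillin of newly laid microfibrils, was 0.311 CPM in sham and 44.4 in tenotomy, 143-fold higher (61.1 to 441). Emilin1, an elastic fibre protein that can hold back processing of the Tgfb1 precursor, was 43.7 and 201 CPM, 4.60-fold higher, and Aspn, a small proteoglycan that binds TGF-beta, was 270 and 868 CPM, 3.22-fold higher. Mmp9, a gelatinase, was 5.98-fold higher from 8 and 92 UMIs. It is also a leading gene of the neutrophil cluster 27, and summed neutrophil markers in the mesenchymal class were 26.5 CPM in sham and 232 in tenotomy, with 8 of 8 higher. Their part in the Mmp9 value was not tested. The protease genes Plau, Htra1 and Mmp2 were 3.66-fold, 3.46-fold and 2.29-fold lower, and the integrin Itgb8 was 2.76-fold lower. The list thus held differences in both directions.

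Of 12 co-receptors and signal transducers, all measured in that class, 1 was higher and 1 lower, at a log2 median of -0.35: Cd109, a co-receptor that dampens signalling, was 3.30-fold higher and the SMAD anchor Zfyve9 2.32-fold lower. Of 14 negative regulators, all measured, 2 were higher and 3 lower, with a median of -0.16. Bambi, a decoy receptor, was 46.6 and 10.5 CPM, 4.43-fold lower, Smad6 2.17-fold and Ski 2.04-fold lower. Fkbp1a, which guards the type I receptor, was 2.33-fold higher, and Pmepa1, a feedback inhibitor, 2.16-fold higher. Of 26 response genes, all measured, 17 were higher and 3 lower, with a median of 1.49. Tnc was 1332-fold higher, Postn 407-fold, Cthrc1 309-fold and Acta2 185-fold, while Itga11 was 4.42-fold, Cdkn1a 3.46-fold and Bhlhe40 2.04-fold lower. Without cycling cells 16 response genes were higher, and after thinning 15. An earlier look at these data had already shown response genes higher in this class, so the count is no independent support.

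Of all 10988 genes measured in muscle stem cell-like cells, 34.2% were higher and 11.6% lower. Of 13 measured negative regulators, 2 were higher, 5 lower and 6 within 2-fold there, and their log2 median was -0.66, against 0.49 over all genes. Bambi was 8.04-fold, Skil 4.43-fold, Nedd4l 3.85-fold and Pmepa1 3.61-fold lower, the last from 1306 to 362 CPM. Fkbp1a was 3.09-fold and Vasn 2.27-fold higher. Of 14 measured partners and activators 5 were higher, near the share of all genes, and 1 lower, with a median of 0.21. Thbs1, which can activate latent ligand, was 15.8 and 164 CPM, 10.4-fold higher (7.89 to 13.9), and Bgn 2.63-fold higher. Itgb6 had 0 UMIs in sham and 114 in tenotomy, 14.3-fold higher with the sham library taken at a floor of 3 UMIs. Mmp9 had 0 and 76 UMIs, 9.51-fold higher at the same floor, in a class whose summed neutrophil markers were also higher, as given above. Mmp2 was 4.81-fold lower. Of 19 measured response genes 8 were higher and 1 lower, with a median of 0.96: Tnc was 41.4-fold, Tpm1 14.7-fold, Col1a2 14.0-fold and Acta2 12.4-fold higher, and Loxl2 3.47-fold lower. Of 10 measured co-receptors and transducers 2 were higher, Cd109 at 2.79-fold and Tab1 at 3.94-fold, and Zfyve9 was 2.31-fold lower, with a median of 0.29. Bambi and Zfyve9 were thus lower, and Fkbp1a and Cd109 higher, in both progenitor classes.

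In tenocyte-like cells the medians of the 4 lists stayed near that of all genes, between -0.11 and 0.15 against -0.04. Of all 9616 genes measured there, 6.11% were higher and 9.53% lower. Of 24 measured response genes 6 were higher and 4 lower, with Timp1 4.31-fold higher and Col1a1, the main collagen chain of tendon, 2.17-fold lower. Of 17 measured partners and activators 3 were higher and 1 lower, and Fn1, a matrix protein that anchors latent complexes, was 1600 and 7039 CPM, 4.40-fold higher. Of 14 measured negative regulators 0 were higher and 3 lower, with Bambi 2.60-fold lower, and none of 11 co-receptors and transducers passed 2-fold. Bambi was lower in this class too.

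For 9 of the 10 genes, those measured in at least 3 classes, the genes with the most similar pattern were sought among 7043 genes by Pearson's r of log2(CPM + 10) over 18 sums of a class in a library. The points share libraries and depth, so r is a description. For Tgfb1 these were Clta (0.92), Ppp6r1 and Brox, for Tgfb2 Bicc1 (0.95), Ddr2 and Col6a1, and for Tgfb3 Prrx1 (0.91), Nnmt and Lhfp. For Tgfbr1 they were Wipf1 (0.93), Azin1 and 1810013L24Rik, for Tgfbr2 Fads1 (0.90), Slc38a10 and Rrbp1, and for Tgfbr3 Boc (0.95), Pam and Osbpl1a. For Ltbp1 they were Nbl1 (0.96), Gas1 and Rora, for Ltbp3 Prelp (0.96), Tenm3 and Antxr1, and for Ltbp4 Gstt1 (0.93), Egr1 and Nfib.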

How the data were processed

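The deposited tables hold raw counts, that is, UMIs per gene and cell barcode, without normalization; per the submitters' processing notes the authors used Cell Ranger 4.0.0 and mm10. Totals were 47781353 UMIs in sham and 94556283 in tenotomy. Neither annotation nor cell calling is given in the sources used here. Cell filters were a minimum of 500 UMIs, a minimum of 300 genes and a maximum of 10% mitochondrial UMIs, and 205 sham and 309 tenotomy doublets were removed by scrublet scores in scanpy 1.11.5. Both libraries were clustered together (2000 variable genes per library, 30 components, 15 neighbours, Leiden at resolution 1, igraph 0.11.9).

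A cluster took a class name where its marker score reached 0.45, 5 or more markers were found in 10% of cells, the next class scored at most 0.6 of the first, and no excess of other classes' markers among its top 10 genes by fold (pseudocount 50 CPM); much shallower clusters needed a leading marker of their own. These limits were set after cluster scores had been seen, with 0.3, 3 markers and a pseudocount of 10 tried first. Folds are ratios of class CPM with exact conditional binomial intervals, and shares have exact Clopper-Pearson intervals (scipy 1.17.1, numpy 2.4.6, pandas 2.3.3, Python 3.11.15). The fold step was tested on simulated data. All 10 genes are named in every compared class, and up to 4 list genes each way per described class, ranked by the interval bound nearest to 1. Members and lists were chosen with earlier results of these data known. Symbols came from GENCODE and matched 32158 of 32285 identifiers, and coordinates are those of GRCm38.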

Additional observations from a re-analysis of the deposited data

Results flagged for a closer look

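Tgfbr1 lay on opposite sides of sham in different classes under the same comparison. Its fold, tenotomy over sham, was 0.417 in mesenchymal progenitor-like cells and 0.409 in muscle stem cell-like cells, and it was 2.01 in neutrophil-like and 2.29 in B cell-like cells. The difference between classes was not tested, because each group has 1 library. After thinning, Tgfbr1 was within 2-fold in both progenitor classes, and the values of the 2 blood cell classes rest on 13 and 6 sham UMIs.

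Ltbp1 stood at 216 CPM in the tenotomy cells of cluster 23, a cluster without a class name that the comparisons did not use, led by Sfrp5 and Itgb4. In its sham cells Ltbp1 was 103 CPM, so tenotomy was 2.10-fold higher (1.502 to 2.94) in 106 sham and 74 tenotomy cells. In no compared class was Ltbp1 at least 2-fold higher.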

How the results depend on the processing

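No paired analysis was possible because each group has 1 library of pooled muscles. Of 24 pairs past 2-fold, 14 stayed past it in every alternative in which they were measured and 10 did not in at least 1. Pairs were measured in up to 12 alternatives. Among the 14, Tgfb2 of neutrophil-like cells was measured in only 4 and Tgfbr3 of neutrophil-like cells in only 5. The first of these could pass the free RNA limit only by differing, so it is no support. Of the 37 pairs within 2-fold, 8 passed it on either side in at least 1 alternative. The pairs numbered 4 higher and 9 lower when cells were thinned before summing, 5 and 9 under a marker gate on each cell, and 4 higher (11 lower) in the 4 classes with at least 200 cells in each library, an alternative chosen after seeing the data. In the other alternatives higher pairs ranged from 6 to 11 and lower pairs from 11 to 18. Ltbp3 in monocyte or macrophage-like cells changed direction, to 0.639 after thinning, 0.724 as a mean of CPM over cells, 0.831 with cluster 13 and 0.796 with every unnamed cluster added to its best class, the last 2 chosen after seeing the data. Besides those named in the report, Tgfb3 of endothelial cells was within 2-fold after thinning (0.569), Tgfb2 of endothelial cells (0.562) and Tgfbr2 of B cell-like cells (1.94) as means over cells, and Ltbp4 of neutrophil-like cells (0.522) at Leiden resolution 2. Besides those whose values under alternatives stand in the report, of the pairs within 2-fold Ltbp3 of muscle stem cell-like cells passed it divided by the median fold (0.497), Tgfbr1 of macrophage-like cells as a mean over cells (2.30), Tgfbr2 of macrophage-like cells with each library clustered alone (0.479), and Tgfb3 of macrophage-like cells under the marker gate (8.38) and at Leiden resolution 0.5 (3.29). The cause was not tested. Calls on list genes, 143 in all, ranged from 96 to 186, the first with fewer classes and the second with no free RNA limit. B cell-like or myofibre-like cells fell under 50 cells in 5 alternatives. With 107 sham macrophage-like and 53 sham B cell-like cells, the intervals of Ltbp3 and Tgfbr1, respectively, included 1, so no difference was detectable at this depth.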

Other observations

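Cells outside the compared classes also carried the 10 genes. Cluster 12 (69 sham and 88 tenotomy cells), led by Ccl21a, Selp and Ackr1, genes of lymphatic and venous endothelium, held Ltbp4 at 1041 CPM in sham and 508 in tenotomy, a fold of 0.488 (0.418 to 0.569). Tgfbr2 was 334 and 158 CPM there, a fold of 0.474 (0.357 to 0.624), while it was above sham in the blood endothelial class. Tgfbr3 was 145 and 62.6 CPM, 2.32-fold lower. Cluster 23 held Tgfbr2 at 160 and 243 CPM, a fold of 1.52 (1.14 to 2.03), and Ltbp4 at 572 and 446 CPM, a fold of 0.780 (0.649 to 0.936).

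In blood endothelial cell-like cells, 5 of 11 measured partners and activators of the latent complex were higher and 1 lower. The log2 median was 0.68, against -0.04 over all genes. Of all 11169 genes measured there, 7.57% were higher and 8.37% lower. Mmp14, a membrane protease, was 3.31 and 49.9 CPM, 15.1-fold higher (10.8 to 21.7). Lrrc32, which holds latent ligand at the cell surface, was 111 and 292 CPM, 2.63-fold higher (2.44 to 2.83), and the integrin Itgb3 was 7.83-fold higher. Htra1 was 4.46-fold higher here and 3.46-fold lower in mesenchymal progenitor-like cells, a difference between classes that was not tested. Lrrc32 was also higher in pericyte or smooth muscle cell-like cells, at 106 and 253 CPM, 2.40-fold (1.99 to 2.89), where 5 of 16 measured partners and activators were higher and 0 lower. In the same cells 10 of 19 measured response genes were higher and 0 lower, at a log2 median of 1.029 against -0.09 over all genes, of which 5.24% were higher and 8.41% lower. Bgn of the activator list was 7.14-fold and Timp1 68.7-fold higher. Summed neutrophil markers in these cells were 23.0 and 1934 CPM, and mesenchymal markers 773 and 1109, and their part was not tested.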
